A study of Mus musculus with 6 samples.

Results

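Grhl1, Grhl2, Grhl3, Ovol1, Ovol2, Zfp750, Prdm1, Tfap2a and Tfap2c encode transcription factors that shape stratified and barrier epithelia, and their 9 transcripts were followed in cultured mouse airway basal cells. They were chosen by gene symbol, 9 of the 56748 genes in the deposited table, and all 9 had a mean of at least 10 normalized counts, the level needed to be tested. The cells were primary basal stem cells from wild-type mouse trachea, sequenced after 4 days in culture. In 3 libraries the cells had received UK-5099, which blocks the mitochondrial pyruvate carrier. In the other 3 libraries they had received 3 inhibitors together, namely Y-27632, a ROCK inhibitor, A8301, which blocks receptors of the TGF-beta pathway, and DMH-1, which blocks those of the BMP pathway. No untreated culture was among the samples, so every difference lies between the inhibitor conditions and does not show which of them moved. The labels give neither the sex of the mice nor whether replicates came from different mice or dishes. The p-values therefore reflect only how these libraries vary, which may be technical. The labels also do not say whether the UK-5099 cultures held Y-27632.

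Grainyhead-like factors (Grhl1, Grhl2, Grhl3) bind a shared DNA element and activate genes of cell junctions and of the skin barrier. Ovol1 and Ovol2 are zinc finger repressors that hold back mesenchymal genes and help epithelial cells to leave the cycle and differentiate. Zfp750, known best from human epidermis, acts downstream of p63 to turn on terminal differentiation. Prdm1, also called Blimp1, is a repressor that drives plasma cell differentiation and acts in the cornifying layers of mouse epidermis, and the AP-2 factors Tfap2a and Tfap2c regulate keratin and growth factor receptor genes in surface epithelium.

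With UK-5099, Zfp750, Tfap2c and Prdm1 were higher, by 2.49-fold, 2.09-fold and 1.80-fold, and Ovol2 was 1.44-fold lower than with the 3 inhibitors. Grhl1 was 1.13-fold higher. Grhl2, Grhl3, Ovol1 and Tfap2a did not pass the test. In all, 5 of the 9 passed it, 4 higher and 1 lower, where 53.8% of the 15704 genes tested passed it (27.2% higher and 26.6% lower). The number called among the 9 was thus near that of any genes in this comparison. Both Zfp750 and Tfap2c passed the test and changed at least 2-fold, as did 10.1% of the genes tested. The test was limma on log2(normalized count + 1), with p-values adjusted over all genes tested by the Benjamini-Hochberg method at a threshold of 0.05. A normalized count is a gene's read count divided by the library's size factor, and fold changes are UK-5099 over 3 inhibitors on this log scale.

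**Figure D1:**
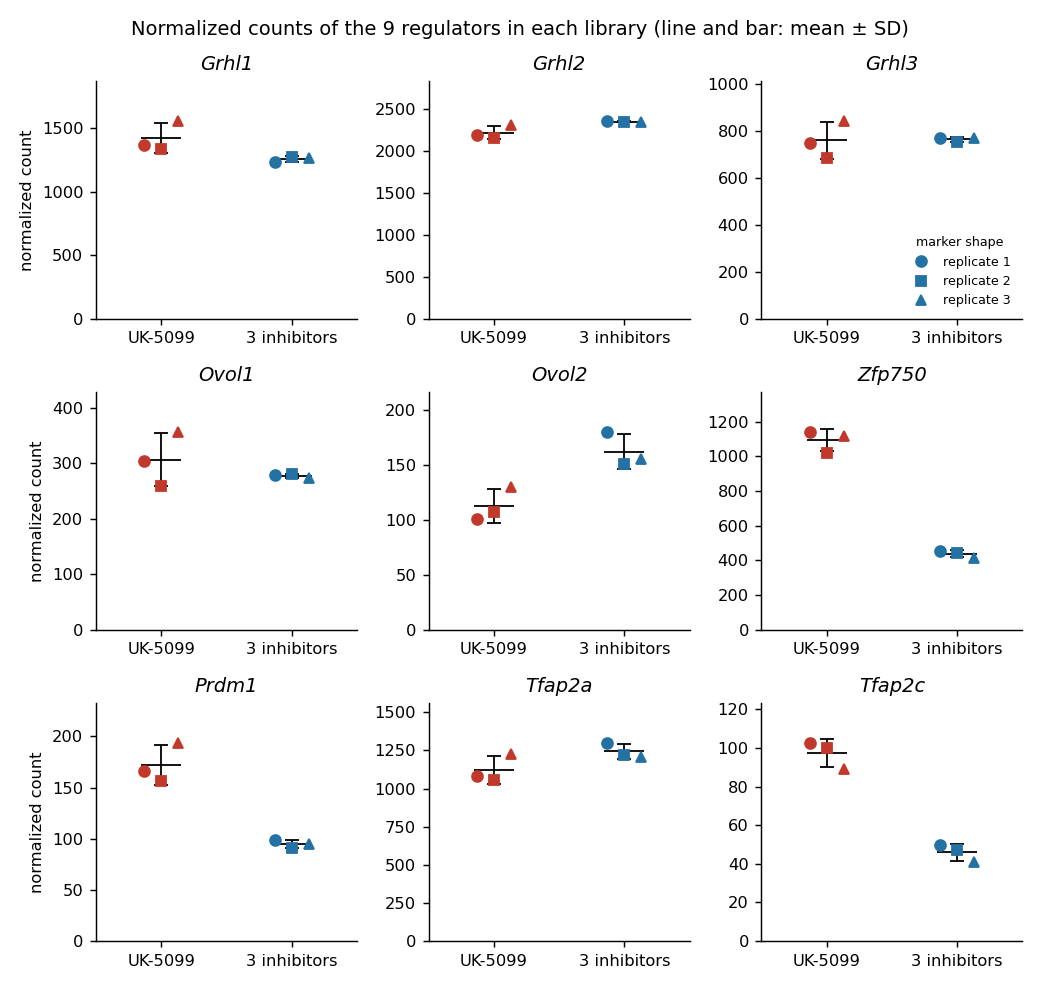
Normalized counts of the 9 regulators, with each panel's axis starting at 0. Points are libraries, with replicate given by marker shape, UK-5099 in red at the left and 3 inhibitors in blue at the right, and the line and bar are mean ± SD (n = 3). The groups stand furthest apart for Zfp750, Prdm1 and Tfap2c, and UK-5099 replicate 3 is the highest UK-5099 point in 7 of the 9 panels.

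The libraries held between 19909589 and 27037795 recovered gene reads, with the fewest in UK-5099 replicate 3. Over all genes tested 4275 were higher and 4174 lower with UK-5099, and the split was 3375 against 5261 when libraries were centred on their median. Such centring lowered every log2 fold change by the same amount, to a median of -0.0892 over all genes tested. UK-5099 replicate 3 had the highest UK-5099 value for 7 of the 9 regulators, and for 43% of all genes tested. Krt5, the defining keratin of basal cells, was abundant in every library, and 6 of 8 basal cell markers were higher with UK-5099, with a summed level between 260910 and 282036 normalized counts under UK-5099 against between 120419 and 132478 under the 3 inhibitors. Most of that sum was Krt5, Krt14 and Krt15, of which Krt15 did not pass (log2 fold change -0.07). The basal marker Ngfr, a neurotrophin receptor, was lower, at 65.8 ± 12.8 normalized counts under UK-5099 against 304 ± 42.9 under the 3 inhibitors (mean ± SD, n = 3 per group; log2 fold change -2.20, adjusted p = 4.32e-07, limma). All 5 tested of 8 secretory cell markers were lower, with sums between 7176 and 8958 under UK-5099 against between 47377 and 50073 under the 3 inhibitors. The RNA came from whole cultures, where fewer cells of a type and less RNA per cell cannot be told apart. Xist was higher (log2 fold change 0.77) and the Y-linked gene Ddx3y lower (-0.82) with UK-5099. The part of these differences in the results below was not tested.

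Zfp750 had 1142, 1022 and 1116 normalized counts in UK-5099 replicates 1, 2 and 3, against 457, 441 and 416 in 3-inhibitor replicates 1, 2 and 3. Every UK-5099 library was above every 3-inhibitor library, with a wide gap. The log2 fold change was 1.32 ± 0.07 (SE; adjusted p = 2.62e-08, limma), and 6.3% of the genes tested had a larger absolute change. In the reference annotation Zfp750 lies on the strand opposite to Tbcd, a tubulin chaperone gene whose span covers it. Tbcd stood at 1633 ± 35.1 normalized counts under UK-5099 against 1381 ± 60.9 under the 3 inhibitors (mean ± SD, n = 3 per group), a log2 fold change of 0.24. Whether counting used strand is not given in the sources used here, so reads of the pair cannot be told apart with certainty.

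Prdm1 had 167, 156 and 194 normalized counts in UK-5099 replicates 1, 2 and 3, against 99.0, 91.2 and 95.04 in 3-inhibitor replicates 1, 2 and 3. The groups did not overlap, and the 3-inhibitor libraries lay close together. Its log2 fold change was 0.84 ± 0.13 (SE; adjusted p = 0.00015, limma). Prdm1 is also a gene of B and plasma cells. Of 9 leukocyte markers 8 were below the filter and Ms4a1 was at 0 in every library, with Jchain, the joining chain of plasma cell antibodies, at 0 under UK-5099 against 0.344 ± 0.595 normalized counts under the 3 inhibitors (mean ± SD, n = 3 per group). The sum of the leukocyte markers lay between 7.11 and 10.2 normalized counts under UK-5099 against between 41.2 and 62.6 under the 3 inhibitors, and Cd74, the 1 gene tested, passed the filter only through the 3-inhibitor libraries. The part of such cells in the Prdm1 values was not tested.

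Tfap2c had 103, 100.2 and 88.9 normalized counts in UK-5099 replicates 1, 2 and 3, against 49.5, 47.4 and 41.1 in 3-inhibitor replicates 1, 2 and 3. The groups were well apart, although Tfap2c rested on the fewest reads of the 9 genes, 73 to 108 per UK-5099 library and 45 to 53 per 3-inhibitor library. Its log2 fold change was 1.07 ± 0.16 (SE; adjusted p = 0.000169, limma). Tfap2a, the AP-2 gene with more reads, had 1084, 1058 and 1225 normalized counts in UK-5099 replicates 1, 2 and 3, against 1299.8, 1223 and 1210.4 in 3-inhibitor replicates 1, 2 and 3. UK-5099 replicate 3 lay within the range of the 3-inhibitor libraries, and the other UK-5099 libraries lay below it. The log2 fold change of Tfap2a was -0.15 ± 0.06 (SE; 95% interval before adjustment -0.29 to -0.01; adjusted p = 0.0614, limma). It passed without UK-5099 replicate 3 (-0.22, adjusted p = 0.0022) and in 3 other settings, with adjusted p over the alternatives between 0.0022 and 0.203.

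AP-2 genes are also active in neural crest and its melanocytes and glia. Of 8 markers of these cells, 5 were below the filter, Sox10, which defines the crest lineage, at 0 under UK-5099 against 0.344 ± 0.595 normalized counts under the 3 inhibitors (mean ± SD, n = 3 per group). Their sum lay between 153 and 192 normalized counts under UK-5099 against between 108 and 156 under the 3 inhibitors. Of the 3 tested, 2 were higher with UK-5099, among them Mitf, a factor of pigment cells (log2 fold change 0.79), and Pmel, a melanosome protein gene, did not pass (-0.44). Their part in the AP-2 values was not tested. Within each library, Tfap2c stood at a log2 ratio to Tfap2a of -3.52 ± 0.22 under UK-5099 against -4.73 ± 0.10 under the 3 inhibitors (mean ± SD, n = 3 per group). The groups did not overlap, and the exact two-sided permutation test gave p = 0.1, the smallest that 3 against 3 allows, or 0.133 adjusted over the 4 ratios compared. The other AP-2 genes, Tfap2b, Tfap2d and Tfap2e, were below the filter, and Tfap2d was at 0 in every library.

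Among the OVO-like genes, Ovol2 had 100.6, 108 and 130.3 normalized counts in UK-5099 replicates 1, 2 and 3, against 180.4, 151 and 155 in 3-inhibitor replicates 1, 2 and 3. All UK-5099 libraries were below all 3-inhibitor libraries. Its log2 fold change was -0.52 ± 0.14 (SE; adjusted p = 0.00656, limma). Ovol1 had 304, 259.9 and 357 normalized counts in UK-5099 replicates 1, 2 and 3, against 278, 281 and 274 in 3-inhibitor replicates 1, 2 and 3. The UK-5099 libraries spread to both sides of the 3-inhibitor libraries, which differed little among themselves. Ovol1 had a log2 fold change of 0.13 ± 0.11 (SE; 95% interval -0.11 to 0.37; adjusted p = 0.341, limma). The log2 ratio of Ovol1 to Ovol2 was 1.43 ± 0.16 under UK-5099 against 0.78 ± 0.14 under the 3 inhibitors (mean ± SD, n = 3 per group), without overlap (exact two-sided permutation p = 0.1, 0.133 adjusted over the 4 ratios). The related Ovol3 was below the filter.

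Grhl1 had 1369, 1338 and 1558 normalized counts in UK-5099 replicates 1, 2 and 3, against 1232, 1269.8 and 1266 in 3-inhibitor replicates 1, 2 and 3. The groups did not overlap, and the gap below the lowest UK-5099 library was small. Its log2 fold change was 0.18 ± 0.06 (SE; adjusted p = 0.0284, limma). The call was lost without UK-5099 replicate 3 (0.11, adjusted p = 0.0647), without 3-inhibitor replicates 1, 2 or 3 (adjusted p = 0.0907, 0.0642 and 0.0682) and in further settings, with adjusted p over the alternatives between 0.00922 and 0.264.

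Grhl2, the grainyhead gene with the most reads, had 2188, 2159 and 2308 normalized counts in UK-5099 replicates 1, 2 and 3, against 2365, 2344 and 2351 in 3-inhibitor replicates 1, 2 and 3. The UK-5099 libraries lay just below the others without overlap. Its log2 fold change was -0.09 ± 0.04 (SE; 95% interval -0.18 to 0.01; adjusted p = 0.116, limma), and it passed without UK-5099 replicate 3 (-0.11, adjusted p = 0.0234) and after median centring (-0.17, adjusted p = 0.00486), with adjusted p over the alternatives between 0.00486 and 0.272. An antisense gene that overlaps Grhl2 in the reference annotation, Gm16136, stood at 524 ± 38.7 normalized counts under UK-5099 against 334 ± 21.2 under the 3 inhibitors (mean ± SD, n = 3 per group). It was higher by 0.65 on the log2 scale (adjusted p = 3.67e-05, limma), and without strand its reads cannot be told from those of Grhl2. Grhl3 had 748, 686 and 843 normalized counts in UK-5099 replicates 1, 2 and 3, against 771, 751 and 768 in 3-inhibitor replicates 1, 2 and 3. The UK-5099 libraries again surrounded the narrow range of the others. Its log2 fold change was -0.01 ± 0.07 (SE; 95% interval -0.17 to 0.15; adjusted p = 0.893, limma), with a sign that turned after upper-quartile rescaling (0.02).

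Relative to Grhl2 in the same library, Grhl1 stood at a log2 ratio of -0.64 ± 0.07 under UK-5099 against -0.91 ± 0.03 under the 3 inhibitors (mean ± SD, n = 3 per group). These did not overlap (exact two-sided permutation p = 0.1, 0.133 adjusted over the 4 ratios). For Grhl3 to Grhl2 the log2 ratios were -1.55 ± 0.10 under UK-5099 against -1.62 ± 0.02 under the 3 inhibitors (mean ± SD, n = 3 per group), which overlapped (exact permutation p = 0.4). That difference of 0.07 was 0.12 without UK-5099 replicate 2 and 0.02 without UK-5099 replicate 3. Taking all 9 regulators, groups did not overlap for 6, and for 60.8% of all genes tested.

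**Figure D2:**
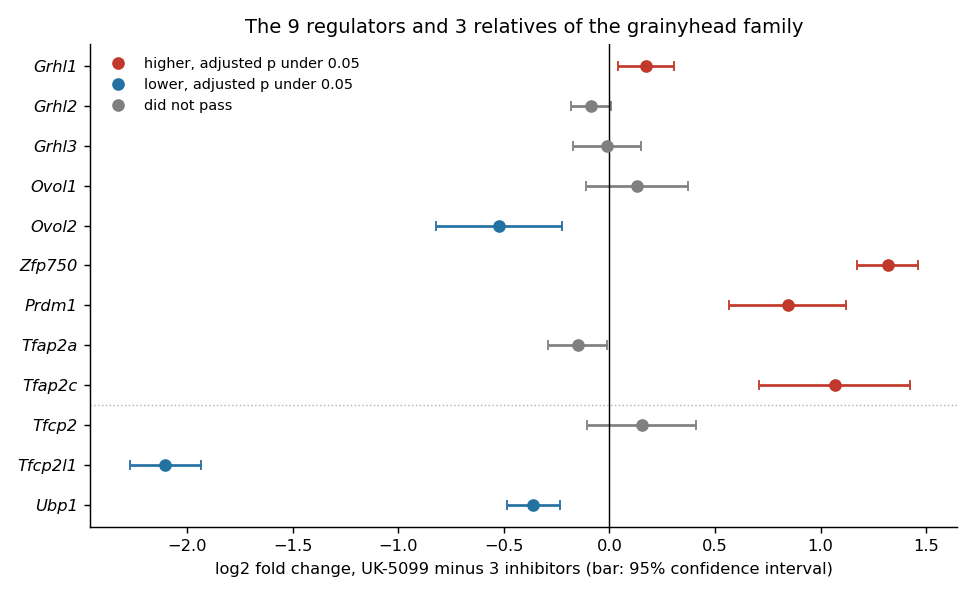
Log2 fold changes of the 9 regulators and, under the dotted line, of 3 relatives of the grainyhead family (x axis, UK-5099 minus 3 inhibitors), with 95% confidence intervals of the limma fit before adjustment. Red and blue mark genes higher and lower at an adjusted p under 0.05 and grey those that did not pass. Zfp750 has the largest positive value of the regulators, and Tfcp2l1 lies at -2.10.

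The grainyhead family has a second branch, the CP2 factors, of which 2 of 3 were lower. Tfcp2l1, known from kidney tubules and embryonic stem cells of the mouse, had 579, 513 and 649 normalized counts in UK-5099 replicates 1, 2 and 3, against 2621, 2419 and 2415 in 3-inhibitor replicates 1, 2 and 3. Every UK-5099 library was far below every 3-inhibitor library, with a log2 fold change of -2.10 ± 0.08 (SE; adjusted p = 2.54e-09, limma), larger in size than that of any of the 9. Ubp1 averaged 1613 ± 128 normalized counts under UK-5099 against 2067 ± 29.4 under the 3 inhibitors (mean ± SD, n = 3 per group; log2 fold change -0.36 ± 0.06, SE; adjusted p = 0.000222, limma). Tfcp2 did not pass (0.15 ± 0.12, adjusted p = 0.2995, limma).

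Levels of different genes were compared per kilobase of annotated exon. With UK-5099, Zfp750 ranked first of the 9, at 338 ± 19.5 normalized counts per kilobase, and with the 3 inhibitors it had rank 5, at 135 ± 6.41 (mean ± SD, n = 3 per group). Grhl3, Grhl2 and Grhl1 followed with UK-5099, at 272 ± 28.3, 258 ± 9.17 and 257 ± 21.5 normalized counts per kilobase, and their libraries overlapped, so these 3 levels were not set apart. With the 3 inhibitors Grhl3 and Grhl2 overlapped at 274 ± 3.96 and 273 ± 1.22 normalized counts per kilobase, and Tfap2a (254 ± 9.85) and Grhl1 (227 ± 3.79) stood below them. Ovol1 and Ovol2 had overlapping libraries with the 3 inhibitors (79.6 ± 0.95 and 76.8 ± 7.51 normalized counts per kilobase), and did not with UK-5099 (88.0 ± 13.9 and 53.4 ± 7.35). Prdm1 and Tfap2c were the lowest, at 30.8 ± 3.49 and 26.4 ± 1.99 normalized counts per kilobase under UK-5099 against 17.0 ± 0.70 and 12.5 ± 1.18 under the 3 inhibitors. Exon length was the union over all annotated transcripts, and the isoforms in use were not measured.

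**Figure D3:**
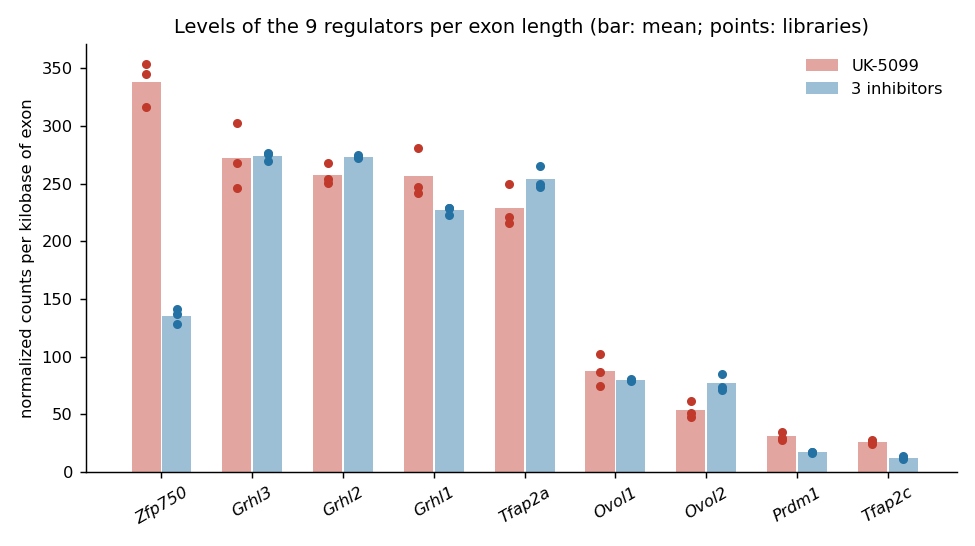
Normalized counts per kilobase of exon (y axis, from 0) for the 9 regulators, ordered by their mean with UK-5099. Bars are means of 3 libraries and points are libraries, with UK-5099 in red at the left of 3 inhibitors in blue. Zfp750 is first with UK-5099 (338) and below the grainyhead genes and Tfap2a with the 3 inhibitors (135).

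Promoter windows of RefSeq transcripts (build GRCm38.p6, 250 bases before to 50 after the start) were at hand for 5 of the 9 genes, Ovol2, Grhl3, Prdm1, Grhl1 and Tfap2a, with 7 windows in all. Those of Prdm1 and Ovol2 are shown because these genes were called in opposite directions in every setting tried. They run 5′ to 3′ on the gene's strand, and capitals mark matches to the motifs searched. The Prdm1 window is chr10:44458699-44458998, minus strand, and that of Ovol2 chr2:144331313-144331612, minus strand.
Prdm1: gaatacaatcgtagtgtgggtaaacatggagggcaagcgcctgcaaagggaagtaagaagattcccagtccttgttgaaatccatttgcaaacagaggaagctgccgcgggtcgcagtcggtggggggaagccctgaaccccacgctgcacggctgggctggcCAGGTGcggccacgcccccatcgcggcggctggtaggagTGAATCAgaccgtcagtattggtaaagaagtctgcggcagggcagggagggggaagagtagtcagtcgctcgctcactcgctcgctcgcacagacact
Ovol2: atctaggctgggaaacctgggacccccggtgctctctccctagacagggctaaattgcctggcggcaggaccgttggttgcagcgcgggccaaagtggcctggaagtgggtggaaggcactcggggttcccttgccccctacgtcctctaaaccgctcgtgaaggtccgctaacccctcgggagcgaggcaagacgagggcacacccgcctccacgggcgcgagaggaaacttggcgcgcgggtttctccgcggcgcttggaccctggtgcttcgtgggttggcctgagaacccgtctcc

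The 5 motifs were searched on both strands, and no match overlapped another. They were the grainyhead element AACCGGTT, the OVO element CCGTTA, the AP-2 element GCCNNNGGC, the AP-1 pattern TGANTCA and CACCTG, an E-box that SNAI and ZEB repressors bind. N stands for any base, so the AP-1 pattern is wider than the usual AP-1 site, which has C or G there. Of all 32851 windows, 0.146% held the grainyhead element, 2.76% the OVO, 16.6% the AP-2, 7.81% the AP-1 and 20.2% the E-box element. The Prdm1 window held a match to the AP-1 pattern 48 bases before the start, with A at its centre (TGAATCA). Its E-box, on the reverse strand as CAGGTG, lay 87 bases before the start. The Ovol2 window held none of the 5. The Grhl3 window held the E-box at 2 places, and 1 of the 2 Grhl1 windows held the AP-2 element. A match describes letters in a window and no binding was measured.

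The genes around the factors were described by lists from general knowledge, with 60 of 73 distinct target genes tested, of which 32 were higher, 18 lower and 10 not called. Of all genes tested 27.2% were higher and 26.6% lower, and their median log2 fold change was 0.00. These shares stand beside each list count below. Of 24 grainyhead targets 23 were tested, of which 10 were higher, 10 lower and 3 not called, with a median log2 fold change of -0.12. Tgm1, a transglutaminase that cross-links the cornified envelope, was higher (2825 ± 113 normalized counts under UK-5099 against 851 ± 50.1 under the 3 inhibitors, SD, n = 3 each; log2 fold change 1.73 ± 0.06, SE; adjusted p = 8.06e-10, limma). The desmosomal cadherin Dsg1b, from a target gene family of Grhl1 in mouse skin, had 401, 356 and 427 normalized counts in UK-5099 replicates 1, 2 and 3, against 9.28, 10.7 and 13.7 in 3-inhibitor replicates 1, 2 and 3. The gap spanned more than an order of magnitude, and the log2 fold change was 5.03 ± 0.18 (SE; adjusted p = 2.03e-09, limma). Dsg1b has close copies in Dsg1a and Dsg1c, with which reads can be shared. Dsg1a, among the 10 higher genes, passed the filter on low values only through the UK-5099 libraries. Its normalized counts were 99.6, 77.03 and 86.5 in UK-5099 replicates 1, 2 and 3. In 3-inhibitor replicates 1, 2 and 3 they were 4.12, 3.57 and 7.31.

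The 3 tight junction claudins of the same list, Cldn3, Cldn4 and Cldn7, were all lower. Cldn3 averaged 599 ± 7.10 normalized counts under UK-5099 against 2411 ± 81.8 under the 3 inhibitors (mean ± SD, n = 3 per group; log2 fold change -2.01 ± 0.05, SE; adjusted p = 7.49e-11, limma), and Cldn7 had a log2 fold change of -1.16 ± 0.05 (SE; adjusted p = 1.7e-08, limma). Cdh1, the epithelial cadherin, had a log2 fold change of -0.17 ± 0.07 (SE) and did not pass (adjusted p = 0.0573, limma). It was called lower after median centring, without the low filter, with the replicate number as a block and by limma-voom. Cdh1 was also called lower without UK-5099 replicate 3. Over the alternatives the list had 9 to 12 lower and 8 to 11 higher genes. Claudins are also genes of luminal airway cells, and the secretory cell markers given above were lower in the same libraries. Their part in the claudin values was not tested.

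**Figure D4:**
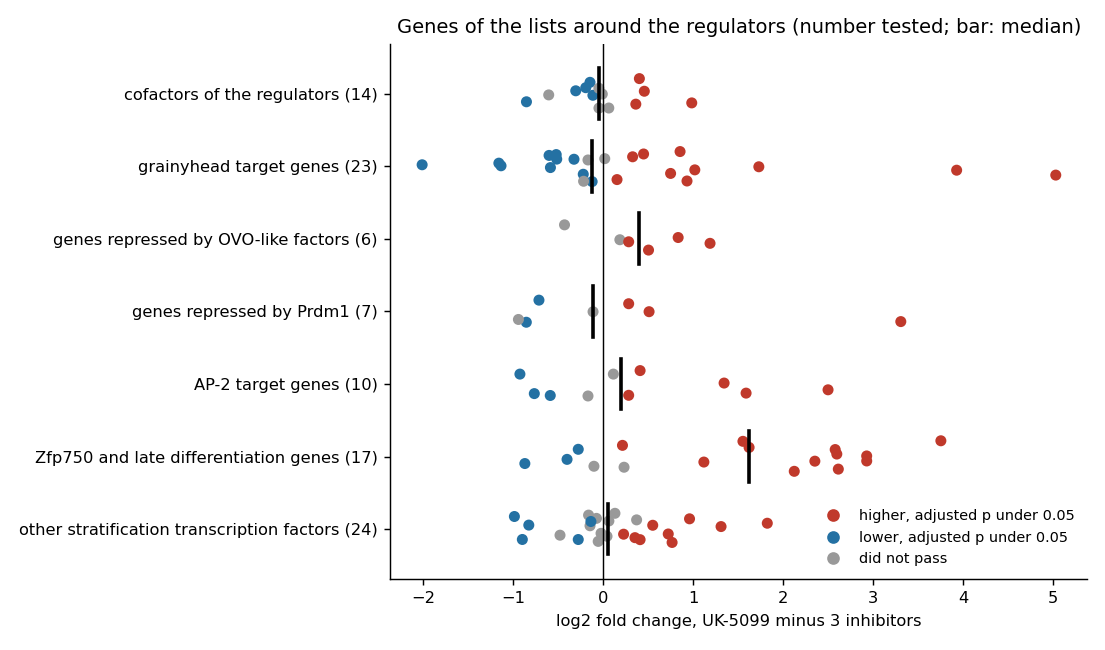
Log2 fold changes (x axis, UK-5099 minus 3 inhibitors) of each tested gene in 7 lists around the regulators, 1 point per gene, with the number tested in brackets and a black bar at the median. Red and blue are genes higher and lower at an adjusted p under 0.05, grey did not pass. The grainyhead targets spread to both sides of 0 (10 higher, 10 lower), and the Zfp750 and late differentiation genes lie mostly to the right (median 1.62).

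Of 20 genes around Zfp750 and late differentiation 17 were tested, of which 12 were higher, 3 lower and 2 not called, with a median log2 fold change of 1.62. Tgm3, among the higher genes, passed the filter on low values only through the UK-5099 libraries. It had 18.7 ± 4.66 normalized counts under UK-5099 against 2.24 ± 0.74 under the 3 inhibitors (mean ± SD, n = 3 per group). Many squamous genes were known to be higher in these libraries before the list was written, so its direction is no independent evidence. Cnfn, the cornified envelope protein cornifelin, had 4928, 4474 and 4869 normalized counts in UK-5099 replicates 1, 2 and 3, against 759.7, 783 and 843 in 3-inhibitor replicates 1, 2 and 3. The envelope precursor Sprr3 had a log2 fold change of 2.61 ± 0.06 (SE; adjusted p = 5.65e-11, limma), and Spink5 and Dmkn had log2 fold changes of 3.75 and 2.93. The 3 lower genes were Klf4, Lor and Casp14. Klf4, which human ZNF750 is known to induce, averaged 10528 ± 536 normalized counts under UK-5099 against 12723 ± 336 under the 3 inhibitors (mean ± SD, n = 3 per group; log2 fold change -0.27 ± 0.05, SE; adjusted p = 0.000343, limma). Lor encodes the envelope protein loricrin and Casp14 a caspase of cornifying cells, with log2 fold changes of -0.87 and -0.40. Casp14 was not called without 3-inhibitor replicate 1 or 3 or at a threshold of 0.01. Of the genes of Zfp750 partners known from human keratinocytes, Kdm1a and Ctbp1 did not pass, at -0.04 and 0.07 on the log2 scale. The corepressor gene Rcor1 was lower (-0.14, adjusted p = 0.039, limma). Its call was lost without UK-5099 replicate 2 or 3 (adjusted p = 0.0826 and 0.0579) and without 3-inhibitor replicate 1 or 3 (0.133 and 0.141). Rcor1 was also not called after upper-quartile rescaling (0.0823), without the low filter (0.0654), without the trend (0.101) or at a threshold of 0.01. Its adjusted p spanned 0.00225 to 0.141 over the alternatives. Ctbp2, a close relative of Ctbp1, was lower (-0.19, adjusted p = 0.0167, limma). Leaving out UK-5099 replicate 2 or 3-inhibitor replicate 1 ended its call (adjusted p = 0.0548 and 0.0851). Ctbp2 was also not called without the trend (0.0722) or at a threshold of 0.01. Its adjusted p spanned 0.00134 to 0.0851 over the alternatives.

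Of 13 genes that OVO-like factors are known to repress, only 6 were tested, of which 4 were higher and none lower with UK-5099 (median log2 fold change 0.40). None was lower by limma or by limma-voom on recovered reads, and 0 were lower at an unadjusted p under 0.05. Without UK-5099 replicate 3, Twist2 was lower (-0.56, adjusted p = 0.0467, against 0.0587 to 0.296 in the other alternatives), and without the filter on low values Cdh2 and Snai1 were lower. Both lay near 0, with means of 0.72 and 0.68 normalized counts under UK-5099 against 5.88 and 4.72 under the 3 inhibitors. Snai2, a repressor of epithelial genes that basal cells express, had 2556, 2628 and 2893 normalized counts in UK-5099 replicates 1, 2 and 3, against 1624, 1474 and 1428 in 3-inhibitor replicates 1, 2 and 3. It was higher in every UK-5099 library (log2 fold change 0.84 ± 0.06, SE; adjusted p = 5.27e-07, limma). Fn1, the matrix protein fibronectin, and the differentiation inhibitor Id2 were higher by log2 fold changes of 1.19 and 0.51. The 3-inhibitor cultures held A8301 and DMH-1, which block receptors of the TGF-beta and BMP pathways. The part of these inhibitors, or of Ovol2, in the values of this list was not tested. Myc, a growth regulator that both Ovol1 and Prdm1 can repress, averaged 3496 ± 330 normalized counts under UK-5099 against 2860 ± 61.1 under the 3 inhibitors (mean ± SD, n = 3 per group; log2 fold change 0.29 ± 0.06, SE; adjusted p = 0.00175, limma). The mesenchymal genes Vim, Cdh2, Twist1, Snai1, Zeb2, Col1a1 and Foxc2 were below the filter, and Zeb1 (0.19) and Twist2 (-0.43) did not pass.

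Genes known to be repressed by Prdm1 were mixed, with 3 of 7 tested higher, 2 lower and 2 not called (median log2 fold change -0.11). Without UK-5099 replicate 3, 4 were lower, among them Ciita, which passed the filter only through the 3-inhibitor libraries. Besides Myc, Id3 and Fos were higher. For Fos the groups overlapped, with UK-5099 replicate 2 at 135 normalized counts and 3-inhibitor replicate 3 at 142. Its adjusted p was 0.024 (limma), so it was not called at a threshold of 0.01. The higher genes of the list were also 2 after median centring, without the trend and at a minimum mean of 50. They were 2 as well without UK-5099 replicate 1 or 3 and without 3-inhibitor replicate 1 or 2. Id3, an inhibitor of helix-loop-helix factors, had 63.0, 57.5 and 84.0 normalized counts in UK-5099 replicates 1, 2 and 3, against 3.09, 6.26 and 10.05 in 3-inhibitor replicates 1, 2 and 3. It passed the filter on low values only through the UK-5099 libraries. The part of A8301 and DMH-1 in the Id3 values was likewise not tested. Nfat5, a factor of the response to osmotic stress, and Bcl6, the repressor that opposes Prdm1 in B cells, were lower by log2 fold changes of -0.85 and -0.71. Of 10 genes linked to AP-2 factors 5 were higher, 3 lower and 2 not called (median 0.20). The keratins Krt14 and Krt5 were higher by 2.50 and 1.59 on the log2 scale. The receptor Erbb3 averaged 2338 ± 145 normalized counts under UK-5099 against 4425 ± 74.6 under the 3 inhibitors (mean ± SD, n = 3 per group; log2 fold change -0.92 ± 0.05, SE; adjusted p = 4.53e-08, limma), and the cell cycle inhibitor Cdkn1a was lower by a log2 fold change of -0.58.

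Of 15 cofactor genes 14 were tested, of which 4 were higher, 5 lower and 5 not called (median log2 fold change -0.04). The lower genes were 2 without UK-5099 replicate 2, and 3 without 3-inhibitor replicate 1 or 3. They were also 2 without the trend and at a threshold of 0.01, and 6 after median centring. Kctd15, whose product restrains AP-2 activity in zebrafish, averaged 1260.0 ± 64.7 normalized counts under UK-5099 against 636 ± 43.8 under the 3 inhibitors (mean ± SD, n = 3 per group; log2 fold change 0.99 ± 0.06, SE; adjusted p = 2.19e-07, limma). Cited2, an AP-2 coactivator, was lower by a log2 fold change of -0.85 and the deacetylase Hdac1 higher by 0.46. Lmo4, a partner of Grhl3 in mouse epidermis, did not pass (-0.01). Among 24 tested of 26 other transcription factors of stratified epithelia, 9 were higher, 5 lower and 10 not called (median 0.06). The lower factors were 8 without UK-5099 replicate 3 and 9 after median centring. Trp63, the factor that maintains basal cells, had a log2 fold change of 0.77, and the vitamin D receptor gene Vdr one of 1.31 ± 0.09 (SE; adjusted p = 2.27e-07, limma). Rora, a nuclear receptor, and Elf3, an epithelial ETS factor, were lower by log2 fold changes of -0.98 and -0.82.

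The genes whose values over the 6 libraries were most like those of each regulator were found by the root mean square difference of log2 values centred on each gene's mean, among genes tested with a mean above the median of all. For Zfp750 these were Phyhip (difference 0.04) and Sfn, which encodes 14-3-3 sigma of stratified epithelium (0.04). For Tfap2c they were Cip2a (0.02), an inhibitor of the phosphatase PP2A, and Cdk1 (0.05), the kinase that starts mitosis, with log2 fold changes of 1.06 and 1.12. Prdm1 was closest to Dctd, an enzyme of pyrimidine supply (0.02), and Klk10, a kallikrein peptidase (0.04). Ovol2 was closest to the aldolase gene Aldoc and the kinase gene Irak2 (0.05 each), with log2 fold changes of -0.51 and -0.55. Grhl1 was closest to Jag1, a Notch ligand (0.01), and Myl12a (0.02). Grhl2 ran with Ralgapb and Nfyc, Grhl3 with Fut8 and Cdcp1, Ovol1 with Wipi1 and Sfswap, and Tfap2a with Atp6v0a1 and Rbm25, at differences from 0.01 to 0.04. The points share group and size factors, and with only 6 of them such likeness is a description.

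**Figure D5:**
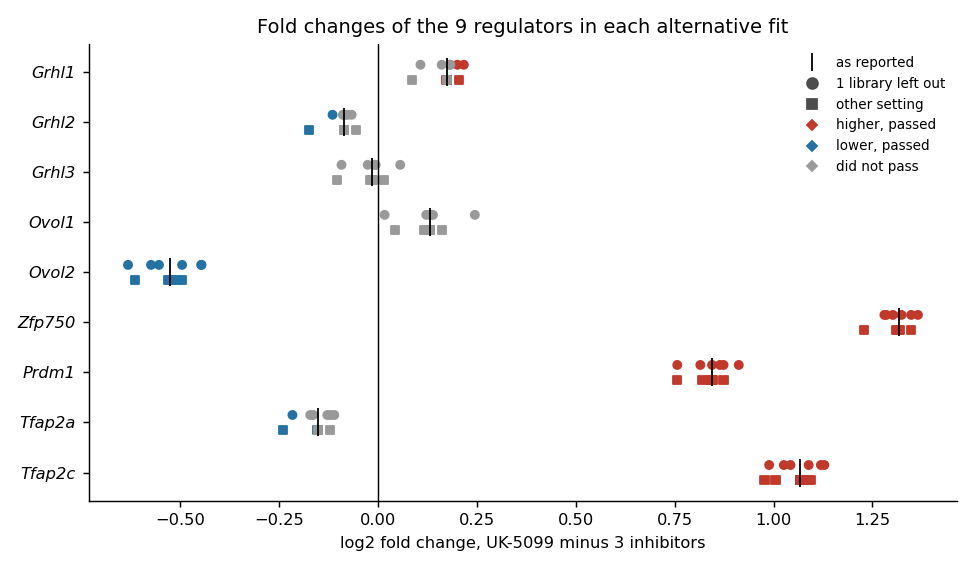
Log2 fold changes of the 9 regulators (x axis, UK-5099 minus 3 inhibitors) in the fit as reported (black tick), with 1 library left out (circles) and in other settings (squares), coloured red or blue where the gene passed as higher or lower and grey where it did not. Zfp750, Prdm1, Tfap2c and Ovol2 pass in all 17 alternatives, Grhl1 in 10, Tfap2a in 4, Grhl2 in 2, and Grhl3 and Ovol1 in 0.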

How the data were processed

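The 6 RNA sequencing libraries, 3 per group, came from a VAHTS kit, per the labels' protocols. Per the submitters' processing notes, the build GRCm39 and the tools DESeq2 1.36.0 and HISAT2 2.1.0 were named, with no role given. Not given in the sources used here are the annotation, the counting tool and its use of strand. As deposited, the table holds a unit other than plain counts, log2 of size-factor normalized counts per gene by the authors, with a text mark for 0. Of 57107 entries 359 repeated an identifier with the same values.

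Values were raised back from log2. Recovered reads were whole to a tolerance of 0.02 for 99.987% to 99.992% of nonzero values. Genes averaging at least 10 normalized counts were fitted with limma 3.58.1 (R 4.3.3; trend, two-sided, no covariates) on log2(value + 1), since no raw counts were given. The fit code was tried on simulated data with far fewer changed genes than were called here, so that trial does not bear on these calls. The regulators and lists were chosen with earlier results of these data known. Text names all regulators and relatives, Myc, Trp63, Klf4 and Cdh1, up to 4 called genes per list by smallest adjusted p, groups of 5 or fewer, and the 2 genes nearest each regulator. Exon lengths and overlaps came from GENCODE vM21 (GRCm38), matched by identifier, for all 9 genes. Python 3.11.15 and scipy 1.17.1 were used for ratios.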

Additional observations from a re-analysis of the deposited data

How the results depend on the processing

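Zfp750, Prdm1, Tfap2c and Ovol2 kept direction and call in all 17 alternatives. Their log2 fold changes ran from 1.23 to 1.37, 0.76 to 0.91, 0.98 to 1.13 and -0.63 to -0.45. Grhl1 was called in 10 of the 17, Tfap2a in 4, Grhl2 in 2, and Grhl3 and Ovol1 in 0. Besides the losses given above, Grhl1 was not called after median centring (0.09, adjusted p = 0.264), without the trend (adjusted p = 0.0926) or at a threshold of 0.01, and Tfap2a was called after median centring (adjusted p = 0.00662), with robust estimation (adjusted p = 0.0478) and by limma-voom (adjusted p = 0.0386). Median centring lowered the log2 fold change of every gene by the same amount. The median over all genes tested went from -0.0005 to -0.0892 with it. What lay behind the other changes of call was not tested. The sign of Grhl3 turned after upper-quartile rescaling (log2 fold change 0.016), and with each library left out it ran from -0.092 (without UK-5099 replicate 3) to 0.057 (without UK-5099 replicate 2). Leaving out each library gave 4 to 6 called regulators and 7336 to 9146 called genes. Limma-voom on recovered reads called 4405 genes higher and 4233 lower. Correlations of deviations for numbers 1, 2 and 3 were -0.017, 0.116 and -0.0886, and not every library correlated best with its own number. Deviations from means of 3 libraries depend on each other, so these values cannot show whether replicate numbers pair the libraries. With the replicate number as a block 5 regulators and 8423 genes were called, against 5 and 8449 without it, with no regulator's call changed. The 4 ratios kept their sign with pseudocounts of 0.5 and 5 and with each library left out. With 3 libraries a group, a change as small as that of Grhl2 was within reach of 1 library, and Tfap2c rested on 45 to 108 reads.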

Other observations

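The AP-1 pattern TGANTCA, with any base at N, was held by 12% of promoter windows of genes called and at least 2-fold higher with UK-5099 (77 of 641 windows). Its share was 6.67% for genes called and at least 2-fold lower (46 of 690) and 5.06% for the other genes tested (598 of 11829). In windows of genes in the table that were not tested the share was 9.49%. The OVO element CCGTTA stood at 2.81%, 2.9% and 3.72% of the higher, lower and other tested windows, and the grainyhead element AACCGGTT was in 1, 0 and 29 of them. The AP-2 element GCCNNNGGC stood at 20.3%, 25.2% and 24.8%, and the E-box CACCTG at 21.2%, 24.8% and 18%. Some genes have several windows, and a match describes letters only. No test was made of these shares.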
